A study of Mus musculus with 82 samples.

Results

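The type I interferon signature is the set of genes that cells switch on when type I interferon reaches them, and it was examined here in resting naive CD4 T cells that had received no treatment. Its members were 35 listed interferon-stimulated genes, of the 19752 genes that the array names from a probe set with 1 gene symbol. A total of 33 members were measured, each from 1 probe set, the array's summary value for a transcript. The probe set of Isg15 also carries the symbol of another gene, so Isg15 was not analysed here, and Ifi44 was likewise not analysed here. The type I interferon module is the mean of the log2 values of the 33 measured genes on an array.

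Type I interferons bind the receptor chains Ifnar1 and Ifnar2, which act through the kinases Jak1 and Tyk2 on Stat2. Stat2 joins Irf9 in the complex ISGF3, which binds the interferon-stimulated response element (ISRE) in the promoters of its target genes. The products of those genes block virus entry, translation and replication, sense viral nucleic acids and tune the response itself, and T cells hold part of the programme at a low level without infection.

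RNA of sorted naive CD4 T cells from spleen was measured on 82 Affymetrix ST1.0 arrays, each a pool of 2 to 3 male mice. The cells were sorted for CD3, CD4 and a further marker of naive cells, and cells with markers of other lineages or of activation, among them CD8, CD11c, CD25, CD49b, Gr1 and Ter119, were removed. The mice were aged 6 weeks by the labels and 5 weeks by the series description, which also speaks of bone marrow granulocytes. The arrays fell into 40 groups of untreated inbred strains kept at 1 production facility. They had no added allele or agent, except that KK.Cg-Ay/J carries the Ay allele in its name and BTBR T+ tf/J names T+ and tf.

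The groups were 129S1/SvImJ, A/J, AKR/J, BALB/cByJ, BPL/1J, BTBR T+ tf/J, C3H/HeJ, C57BL/10J, C57BL/6J, C57BLKS/J, C57L/J, CAST/EiJ, CBA/CaJ, CBA/J, CE/J, DDY/JclSidSeyFrkJ, FVB/NJ, JF1/Ms, KK.Cg-Ay/J, LGJ, LP/J, MA/MyJ, MRL/MpJ, MSM/Ms, NOD/ShiLtJ, NON/ShiLtJ, NOR/LtJ, NZB/BINJ, NZW/LacJ, P/J, PL/J, PWD/PHJ, RIIIS/J, SEA/GnJ, SJL/J, SM/J, SWR/J and WSB/EiJ, with 2 further groups. The first of these is C57BR-titled, whose strain label reads CBA/CaJ, and the second is DBA2-titled, whose strain label reads DBA/1LacJ. SWR/J is known from 1 array, C57BL/6J from 5 and each of the other 38 groups from 2. The pools of a strain count as biological replicates in the series description, and p-values measure only the spread between them. JF1/Ms, MSM/Ms, PWD/PHJ and CAST/EiJ stem from subspecies of the house mouse that contributed little to the common laboratory strains.

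The values are linear intensities as the authors normalized them, with array medians from 102 to 142 and a median of all values of 113. Naive CD4 T cell markers stood high in every strain. Cd3e, part of CD3, had strain means from 5481 to 8145, Cd4 from 2786 to 5668, Ccr7, the lymph node homing receptor, from 5784 to 7946, and Lef1, a transcription factor of naive T cells, from 3998 to 5273. Tcf7 was not analysed here. PL/J replicate 2 and A/J replicate 2 carried B cell markers, with list means of 8.83 and 7.47 on the log2 scale against a median of 5.81 over the strain means, and erythroid markers at 8.41 and 8.21 against 6.27. Neither strain lies at an end of the module order.

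Promoters of 4 members are shown because they span the behaviours described below. Ifit1 and Ifit3 followed the module most closely among members with a promoter in the table used, and Oasl2 and Eif2ak2 had strain effects of their own. The windows are from RefSeq on GRCm38.p6 and run 5′ to 3′ on the gene's strand, from 250 bases before the gene start to 50 bases after it. Capitals mark the ISRE core, searched on both strands as GAAA, any 2 bases (NN), and GAAA again, which reads TTTC, any 2 bases and TTTC on the other strand. They cover chr19:34640639-34640938 (plus strand) for Ifit1, chr19:34583279-34583578 (plus strand) for Ifit3, chr5:114896684-114896983 (plus strand) for Oasl2 and chr17:78882523-78882822 (minus strand) for Eif2ak2.
Ifit1: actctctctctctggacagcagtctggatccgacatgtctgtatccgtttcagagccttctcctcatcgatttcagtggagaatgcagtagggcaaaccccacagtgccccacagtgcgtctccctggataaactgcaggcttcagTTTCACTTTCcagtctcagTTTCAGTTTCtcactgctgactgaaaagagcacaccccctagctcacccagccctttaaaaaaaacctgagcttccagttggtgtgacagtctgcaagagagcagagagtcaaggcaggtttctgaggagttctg
Ifit3: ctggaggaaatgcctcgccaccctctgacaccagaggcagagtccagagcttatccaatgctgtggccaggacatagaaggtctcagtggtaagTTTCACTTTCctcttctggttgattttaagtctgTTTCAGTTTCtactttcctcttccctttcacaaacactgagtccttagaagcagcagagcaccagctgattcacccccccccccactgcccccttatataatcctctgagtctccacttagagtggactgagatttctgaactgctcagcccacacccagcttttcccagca
Oasl2: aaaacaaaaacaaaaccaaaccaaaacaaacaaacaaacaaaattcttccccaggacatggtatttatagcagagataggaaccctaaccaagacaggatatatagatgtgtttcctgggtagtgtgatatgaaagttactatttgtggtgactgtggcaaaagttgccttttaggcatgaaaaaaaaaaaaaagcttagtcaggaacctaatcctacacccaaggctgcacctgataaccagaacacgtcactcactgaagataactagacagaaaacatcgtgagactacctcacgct
Eif2ak2: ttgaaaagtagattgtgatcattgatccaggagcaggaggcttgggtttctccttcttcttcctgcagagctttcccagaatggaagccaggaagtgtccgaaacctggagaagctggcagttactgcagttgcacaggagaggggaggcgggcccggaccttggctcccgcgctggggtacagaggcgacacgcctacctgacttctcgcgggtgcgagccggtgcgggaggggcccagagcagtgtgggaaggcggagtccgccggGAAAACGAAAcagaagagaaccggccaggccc
The Ifit1 window holds 2 cores, whose first bases lie 104 and 85 bases before the start, and the Ifit3 window holds 2, at 156 and 122 bases before it. The Eif2ak2 window holds 1 core, whose first base lies 18 bases after the start, and the Oasl2 window holds none.

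A promoter window was at hand for 25 of the 35 listed members, and 10 of them, or 40%, held at least 1 ISRE core, against 3.99% of the 27025 genes in the table. The gamma-activated site, searched as TTCNNNGAA on both strands, was in the windows of 5 of the 25 members and of 9.55% of all genes. A stretch can match both motifs where their letters overlap, and a match describes the window and not a site in use. Members that followed the module and members that did not both held the core. Among measured members with r of at least 0.5 with the module (defined below), 7 of 17 held it, as did 2 of 6 with lower r. Oas1c, whose r was 0.10, held 2 cores, whereas no core was found in the windows of Irf7, Irf9, Parp12 and Cmpk2, whose r was from 0.73 to 0.88.

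The first question was whether the members differ between strains. Of the 33 members, 32 passed limma's moderated F-test over the 40 strains, with Benjamini-Hochberg adjustment across the 24922 probe sets of the array, while 47.6% of all probe sets passed. The SD of strain means had a median of 0.46 over the members on the log2 scale, against 0.14 over all probe sets, whereas the spread between replicates was nearly alike, with median SDs of 0.18 for members and 0.16 for all probe sets. The range from the lowest to the highest strain was at least 2-fold in 28 members and at least 4-fold in 19, and at least 2-fold in 18.6% of all probe sets. The exception was Sp100, a nuclear body protein gene, with strain means from 3716 to 4960 (adjusted p = 0.0794), and it passed under 4 of 9 other settings, with adjusted p from 0.0036 to 0.0409.

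The second question was whether they move as one. The module varied in step across most members. Strain means of the module ran over 1.26 on the log2 scale, or 2.4-fold, and on single arrays it ran between 7.82 and 9.17. The gap between the 2 arrays of a strain had a median of 0.13 and reached 0.31 in NOD/ShiLtJ. The share of variance lying between strains, the intraclass correlation, was 0.88 for the module and had a median of 0.82 over single members.

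The highest module means were those of C57BL/10J (9.09), MRL/MpJ (9.05), JF1/Ms (9.05), BPL/1J (9.01), NZW/LacJ (8.99) and NZB/BINJ (8.97). The lowest were those of SWR/J (7.82, from 1 array), FVB/NJ (7.86), MSM/Ms (7.88), WSB/EiJ (8.07), CAST/EiJ (8.23) and RIIIS/J (8.25). Both arrays lay at 9.15 and 9.02 in C57BL/10J, 9.17 and 8.93 in MRL/MpJ and 8.96 and 9.14 in JF1/Ms. They lay at 7.88 and 7.84 in FVB/NJ and at 7.85 and 7.91 in MSM/Ms. The arrays of these highest and lowest strains do not overlap, which their choice by rank fixes. Of the 39 steps between neighbouring strains, 37 were smaller than the median gap between replicates, and the widest, 0.20, lay between WSB/EiJ and MSM/Ms. With 40 strains over a range of 1.26 most steps must be small, so the count does not show the shape of the order. C57BL/6J, a common standard strain, stood eighth at 8.89, with arrays from 8.79 to 9.05.

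**Figure D1:**
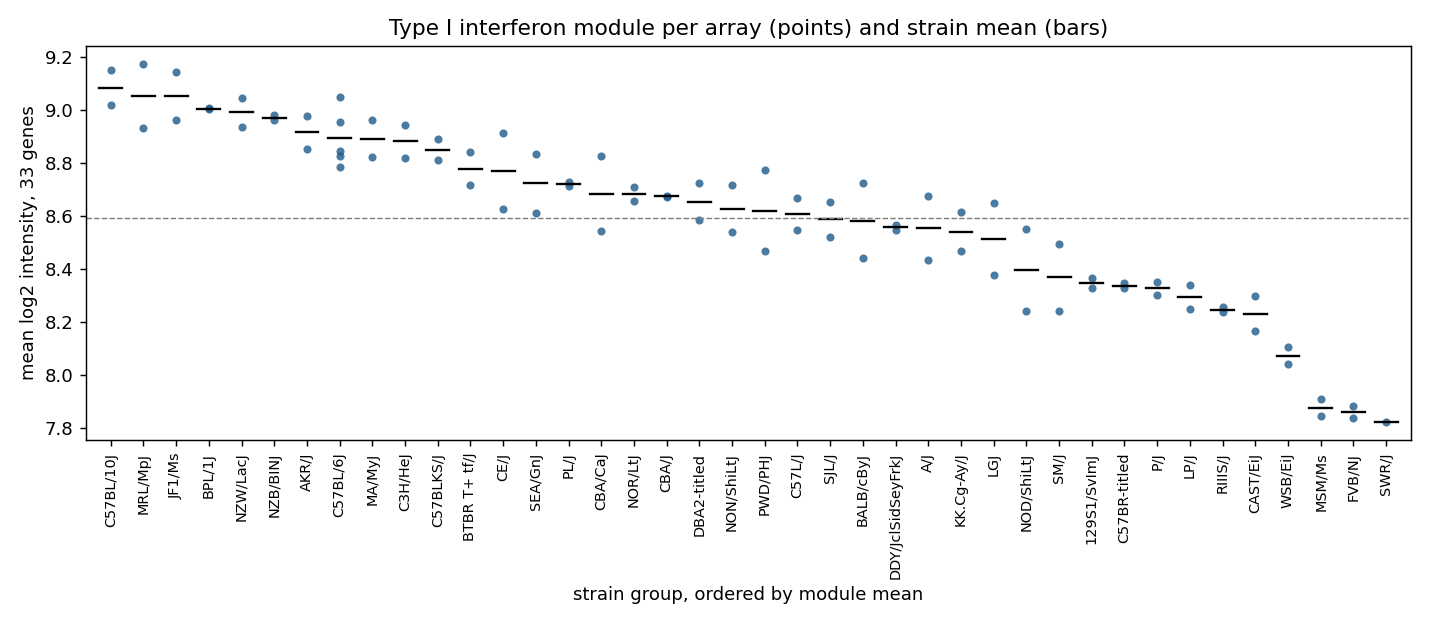
Type I interferon module, the mean log2 intensity of 33 genes, for each of 82 arrays (points) and each of 40 strain groups (black bars, the mean over a strain's arrays), ordered from high to low, with the mean of the strain means dashed. Strain means run from 9.09 in C57BL/10J to 8.07 in WSB/EiJ, and MSM/Ms, FVB/NJ and SWR/J sit below these, between 7.82 and 7.88.

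Each strain was then set against the mean of the other 39 by a limma contrast. These contrasts share their arrays, since every strain is part of the comparison mean of the others, and their counts are not independent. Over all 40 strains, 212 of 1320 pairs of a member and a strain were called higher and 186 lower, at an adjusted p under 0.05. Of all pairs of a probe set and a strain, 3.25% were called higher and 3.14% lower. At least 10 members were called higher in 10 strains and at least 10 lower in 6. Members were called in both directions in 19 strains. The matching share for sets of other probe sets was not computed, so this count is not read as a result about the members.

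At the low end, FVB/NJ had 24 members lower and 0 higher, against 3.66% of all probe sets lower and 0.875% higher. SWR/J had 17 lower and 0 higher (1.01% and 0.429% of all probe sets), although its single array borrows its error from the other strains. WSB/EiJ had 21 lower and 1 higher (3.68% and 3.96%), the one higher being Oas1c, and CAST/EiJ had 15 lower and 2 higher (9.99% and 7.75%), namely Mx1 and Ifi27l2a. MSM/Ms had 20 lower and 1 higher (6.74% and 5.77%), namely Eif2ak2. The median difference of the 33 members was -0.72 in FVB/NJ and -0.62 in SWR/J, where that of all probe sets was 0.03 and 0.01.

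At the high end, C57BL/10J had 15 members higher and 0 lower, against 1.84% and 2.82% of all probe sets. MRL/MpJ had 17 higher and 1 lower (5.32% and 6%), the one lower being Trim25. JF1/Ms had 19 higher and 4 lower (6.94% and 4.47%), the 4 being Oas1c, Oas2, Oasl2 and Ifit2. Without JF1/Ms replicate 2, the number of members called higher in JF1/Ms was 11. C57BL/6J, with 5 arrays, had 17 higher and 0 lower (7.92% and 1.95%). PWD/PHJ, in the middle of the order at 8.62, had 13 higher and 8 lower (10.4% and 5.71%), the most even split among the strains with 10 or more members called higher.

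**Figure D2:**
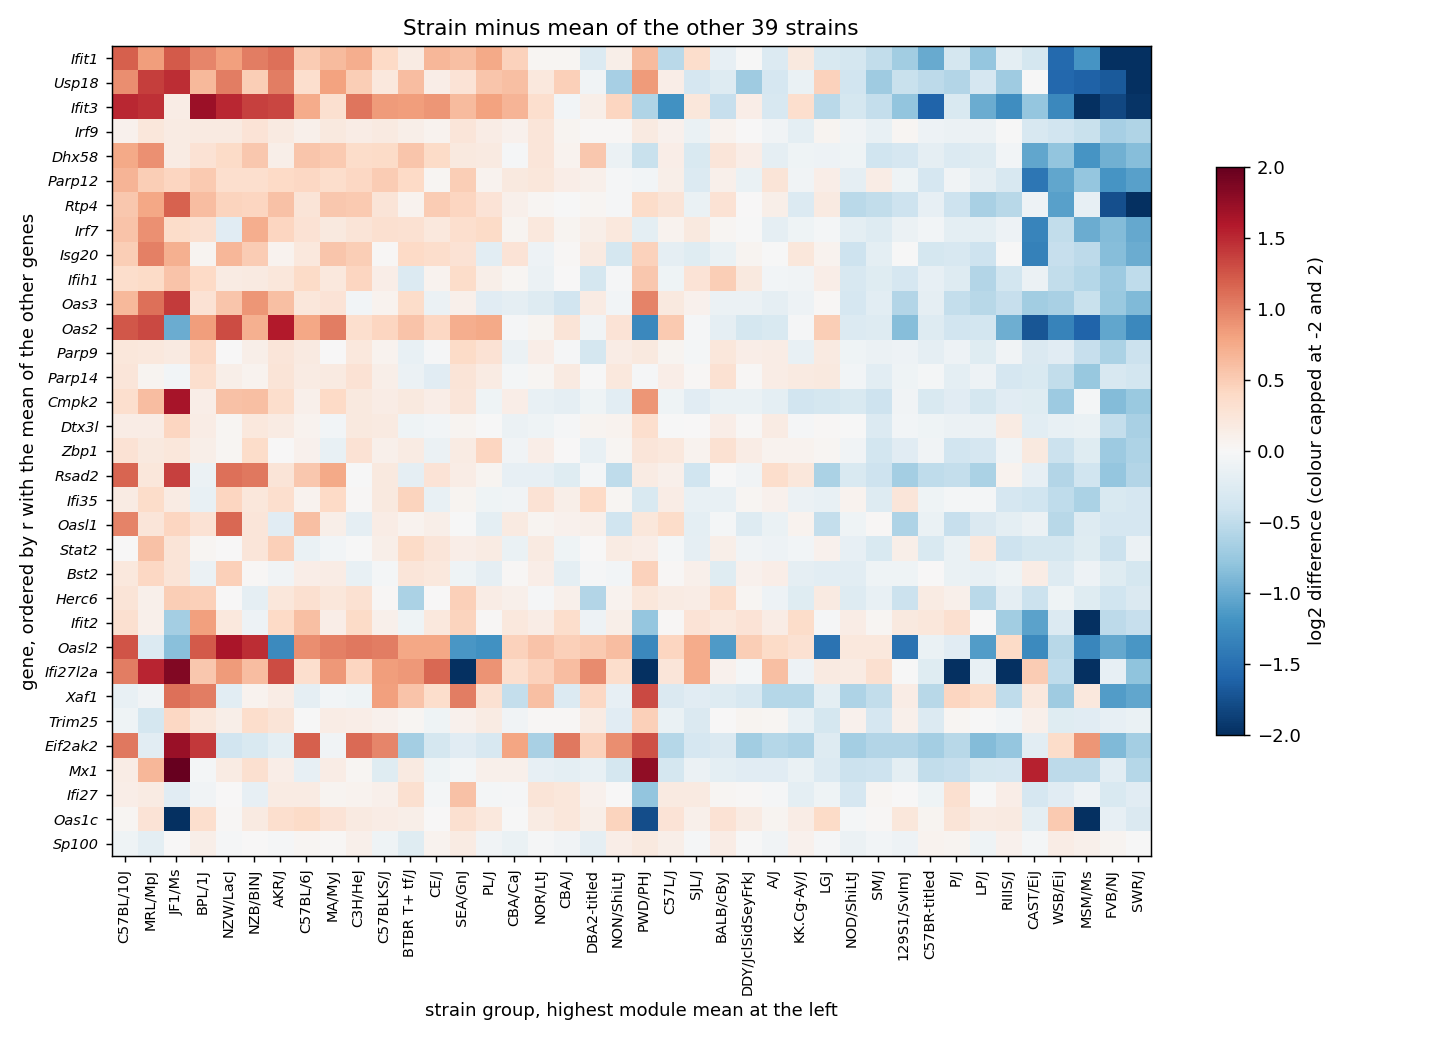
Difference of each strain from the mean of the other 39, on the log2 scale with colour capped at -2 and 2, for 33 genes (rows, ordered by their r with the mean of the other genes) and 40 strains (columns, ordered by module mean). The upper rows run from red at the left to blue at the right together, whereas Oasl2, Ifi27l2a, Eif2ak2, Mx1 and Oas1c break the pattern in single strains.

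The measure of likeness was the Pearson correlation (r) of a member with the mean of the other 32, over the 40 strain means. It is given as a description, since the strain means share arrays and normalization. Its median was 0.72, with 24 of 33 members at 0.5 or more, against a median of -0.04 over all probe sets and 0.618% of them at 0.5 or more. Leaving a member's own gene cluster out of the mean gave a median of 0.72. Of the 528 pairs of members, 89.2% correlated above 0, with a median of 0.47.

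The differences between the 2 arrays of a strain, which no strain effect enters, showed the same tendency. Over 38 strains, the r of a member's replicate difference with that of the other members had a median of 0.61, with 27 of 33 members at 0.5 or more. Over all probe sets the median was -0.09, and 2.52% reached 0.5. The pools of a strain therefore differed in the level of many members at once, by up to 0.31 on the log2 scale of the module. In RNA of sorted cell pools, a change in the number of cells of a type and a change in RNA per cell cannot be told apart.

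The 3 transcription factors among the members had r from 0.63 to 0.88 with the module, with ranges of 1.88-fold in Irf9, 1.98-fold in Stat2 and 4.54-fold in Irf7. Irf9, the DNA-binding part of ISGF3, had r = 0.88 and strain means from 777 in FVB/NJ to 1462 in NZB/BINJ. In FVB/NJ its arrays read 766 and 788, against a median of 1268 over the 40 strains, a difference of -0.66 ± 0.08 (SE, log2; limma adjusted p = 4.9e-09). Irf7, which drives interferon and interferon-stimulated genes in a feedback loop, had r = 0.85 and ran between 204 in CAST/EiJ and 924 in MRL/MpJ. Stat2, the activating part of ISGF3, had r = 0.63 and ran between 391 in FVB/NJ and 775 in MRL/MpJ. All 3 were called lower in both FVB/NJ and MSM/Ms and higher in MRL/MpJ. At the other ends of the order fewer were called, with 2 lower in SWR/J and 2 higher in JF1/Ms. In C57BL/10J, which had the highest module, only 1 was called higher, and the differences were 0.08 in Irf9 and 0.0003 in Stat2.

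Usp18, which removes Isg15 from proteins and blocks signalling at Ifnar2, was the second closest follower of the module (r = 0.89). It had 1446 and 1778 in JF1/Ms and 1635 and 1407 in MRL/MpJ, against a median of 650 over the 40 strains. It had 149 in SWR/J, 221 and 164 in FVB/NJ, 190 and 209 in MSM/Ms and 216 and 194 in WSB/EiJ. These 4 strains lay below the other 36, with a gap of 0.83 on the log2 scale to RIIIS/J (365). Herc6, the main Isg15 ligase of the mouse, followed less closely (r = 0.52) and ran between 493 and 1053.

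The 4 nucleic acid sensing genes had their highest values in different strains. Dhx58 (LGP2), a regulator of RNA sensing, had r = 0.87 and ran between 82.3 in MSM/Ms and 339 in MRL/MpJ. Ifih1 (MDA5), a sensor of double-stranded RNA, had r = 0.80 and ran between 196 in FVB/NJ and 469 in JF1/Ms. Zbp1, a sensor of Z-form nucleic acid, had r = 0.72 and ran between 619 in FVB/NJ and 1352 in PL/J. Trim25, a ubiquitin ligase of the RNA sensing pathway, had the lowest r of these, 0.41, with a 1.74-fold range between 579 in LGJ and 1007 in PWD/PHJ.

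The 3 IFIT genes, whose products bind viral RNA and restrain translation, had ranges from 6.95- to 19.3-fold and r from 0.52 to 0.92. Ifit1 had 819 and 1070 in JF1/Ms and 962 and 875 in C57BL/10J, against a median of 432 over the 40 strains. It had 73.0 in SWR/J, 80.6 and 81.5 in FVB/NJ and 181 and 112 in WSB/EiJ. These strains were taken from both ends of its order, so their lack of overlap is fixed by that choice, and the range was 12.8-fold. Against the mean of the others, Ifit1 was lower by -2.39 ± 0.19 in FVB/NJ (SE, log2; limma adjusted p = 1.1e-13) and higher by 1.20 ± 0.19 in C57BL/10J (adjusted p = 1.6e-05).

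Ifit3 had r = 0.89 and a 19.3-fold range, whose low end rests on low signal, since 7 strains lay below the median of all values. It had 728 and 717 in BPL/1J and 637 and 627 in C57BL/10J, against a median of 250, and 41.7 and 33.7 in MSM/Ms and 71.4 and 61.2 in FVB/NJ. In C57L/J, whose module lay near the mean of the strains, Ifit3 had only 112 and 90.3. Ifit1 and Ifit3, neighbours on chromosome 19, correlated at 0.87 over the strains. Ifit2 from the same cluster correlated at 0.41 with Ifit1 and at 0.64 with Ifit3. Ifit2 had 110 and 82.3 in MSM/Ms and 203 and 282 in JF1/Ms, against a median of 415.

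Among other effectors, Rtp4, a chaperone-like gene with antiviral activity, had r = 0.87 and an 8.7-fold range between 130 in SWR/J and 1129 in JF1/Ms. Isg20, an RNA exonuclease, had r = 0.81 and ran between 186 in CAST/EiJ and 913 in MRL/MpJ. Rsad2 (viperin) and its neighbour Cmpk2, which together make and feed a chain-terminating nucleotide pathway, had r of 0.71 and 0.73 with the module and 0.78 with each other. Rsad2 was dim, with strain means from 42.3 to 181 and 35 of 40 strains under the median of all values. Bst2 (tetherin), which holds budding virions at the cell surface, had r = 0.55 and a 1.76-fold range.

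The 4 ADP-ribosylation genes had r from 0.73 to 0.87. Parp12 had r = 0.87 and a 4.21-fold range, between 87.9 in CAST/EiJ and 370 in C57BL/10J. By contrast, Parp9, Parp14 and Dtx3l had r of 0.76, 0.74 and 0.73, with narrower ranges of 2.01- to 2.09-fold. Parp9, a macrodomain protein that works in a complex with the ubiquitin ligase Dtx3l, correlated with it at 0.74, and with Parp14 at 0.78. In FVB/NJ, 3 of these 4 genes were called lower (Parp14 was not), and in MSM/Ms 3 of 4 were (Dtx3l was not).

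Single members also departed from the module in single strains. A single-gene strain effect was counted where a strain lay at least 1 on the log2 scale from the straight-line fit of the member on the mean of the other members, and was also called against the other strains. There were 34 such effects in 10 members and 15 strains, 12 above and 22 below the fit. Members with narrow ranges could hardly reach the fixed limit of 1. The whole strain range was 0.42 in Sp100, 0.80 in Trim25, 0.82 in Bst2, 0.91 in Irf9 and 0.99 in Stat2. Their lack of such effects is therefore largely set by the limit. The matching share for other probe sets was not computed, so the count is only a description. The 4 strains from other subspecies held 22 of them, 8 in JF1/Ms, 7 in PWD/PHJ, 4 in MSM/Ms and 3 in CAST/EiJ. These strains also had many probe sets called over the whole array, up to 10.4% higher in PWD/PHJ and 9.99% lower in CAST/EiJ, and whether sequence differences under the probes enter these values was not tested.

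A total of 24 effects met both conditions in every alternative in which they were computed. The other 10 missed a condition in 1 to 5 of 92 settings, the main one counted among them. Leaving out 1 array did so for Eif2ak2 in BPL/1J (without its replicate 2, 0.94) and in PWD/PHJ (without its replicate 2, 0.99), Oas2 in CAST/EiJ (without its replicate 3, -0.88), Oasl2 in BALB/cByJ (without its replicate 1, -0.96) and Ifit2 in JF1/Ms (without its replicate 1, -0.88). It did so too for Ifi27l2a in JF1/Ms (without its replicate 1, 0.83, and without an array of PWD/PHJ, SEA/GnJ or SWR/J, 0.97 to 1.00). Ifi27l2a in CAST/EiJ without its replicate 3 and Ifit3 in C57L/J without its replicate 2 lost the call against the other strains. Oasl2 in 129S1/SvImJ (-0.93) and in NZW/LacJ (0.99) missed only with an offset of 32 added before the logarithm.

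Ifi27l2a, a small mitochondrial and nuclear envelope protein gene of unsettled role, had the widest range of the set, 36.0-fold. It had 94.3 and 52.0 in MSM/Ms, 76.0 and 72.2 in PWD/PHJ, 67.7 and 82.6 in RIIIS/J, 85.0 and 78.1 in P/J and 79.1 and 85.6 in SEA/GnJ, against a median of 914 over the 40 strains. The 5 strains lay below the median of all values, and the next, SWR/J, had 420, a gap of 2.35 on the log2 scale. Their module means ran between 7.88 in MSM/Ms and 8.73 in SEA/GnJ. The highest values were 2595 and 2450 in JF1/Ms.

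Over all strains, Ifi27l2a had r = 0.43 with the other members, and its replicate differences did not follow theirs (r = 0.03). Its difference from the other strains was between -3.22 and -3.46 (SE 0.13, log2) in the 5 low strains, with limma adjusted p from 1.8e-27 to 5.1e-25. Ifi27, whose RefSeq span overlaps that of Ifi27l2a, did not share the pattern (r = 0.07 between them), with strain means from 314 in PWD/PHJ to 791 in SEA/GnJ. Of the 5 strains, PWD/PHJ was lower in Ifi27 (-0.79 ± 0.09, limma adjusted p = 2.5e-10), whereas SEA/GnJ (0.58) and P/J (0.32) were higher.

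Oasl2, an oligoadenylate synthetase-like antiviral gene, had 9 effects, the most of any member. It had 94.5 and 92.3 in BALB/cByJ, 78.5 and 91.5 in AKR/J, 93.0 and 59.0 in LGJ and 71.5 and 77.0 in 129S1/SvImJ, against a median of 252. PWD/PHJ, SEA/GnJ, PL/J and JF1/Ms were also low, between 84.0 and 114. AKR/J held the seventh highest module, so that its Oasl2 lay 1.75 below the fit. NZW/LacJ, with 577 and 627, lay 1.09 above it. Despite these strain effects, the replicate differences of Oasl2 followed those of the other members (r = 0.62).

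The neighbouring Oasl1, which dampens Irf7 translation in the mouse, had no such effect and r = 0.65, with 462 in NZW/LacJ and 140 in 129S1/SvImJ. The replicate differences of Oasl1 did not follow the module (r = -0.02). The oligoadenylate synthetase genes of the other cluster split by strain. Oas3 (r = 0.79) and Oas2 (r = 0.76), which activate RNase L, correlated at 0.52, but in JF1/Ms Oas3 was high, with 524 and 565 against a median of 197, and Oas2 was low, with 157 and 193 against 336.

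Oas1c, a family member whose activity in RNase L signalling is not established, had 37.1 and 43.0 in JF1/Ms, 47.2 and 40.02 in MSM/Ms and 42.1 and 62.2 in PWD/PHJ, against a median of 189. The next strain, SWR/J, had 140. Outside these 3 strains its range was small, from 140 to 243, and it did not follow the module order (r = 0.10 over all strains, 0.31 without the 4 strains from other subspecies). Within strains its replicate differences did follow (r = 0.56). The Oas1 genes are close paralogs, and cross-reading between them was not tested.

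Eif2ak2 (PKR), the kinase that halts translation on double-stranded RNA, had strain means on both sides of a gap. A total of 13 strains lay at 101 or more and 27 at 74.7 or less, the upper 13 holding C57BL/6J, C57BL/10J, C57BLKS/J, C3H/HeJ, CBA/J, CBA/CaJ, NON/ShiLtJ, BPL/1J, DBA2-titled, WSB/EiJ, JF1/Ms, PWD/PHJ and MSM/Ms. The highest were JF1/Ms with 229 and 276 and BPL/1J with 186 and 224, against a median of 64.2, which lies below the median of all values. In MSM/Ms, with the third lowest module, Eif2ak2 had 147 and 138 and lay 1.47 above the fit. The gap is 0.43 on the log2 scale, 1.93 times the SD between replicates, and the strains on either side were grouped here only to describe their order.

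Mx1, a dynamin-like antiviral GTPase gene that is defective in most common laboratory strains, was dim in 37 of 40 strains. It had 130 and 235 in JF1/Ms, 88.8 and 211 in PWD/PHJ and 102 and 134 in CAST/EiJ, against a median of 37.0. MRL/MpJ came next with 64.6, from 84.5 and 49.3. MSM/Ms, the remaining strain from another subspecies, had 28.3 and 29.5. Without those 4 strains, Mx1 followed the other members at r = 0.76, against 0.35 with them.

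Xaf1, a pro-apoptotic partner of inhibitor of apoptosis proteins, had 1253 and 1308 in PWD/PHJ, against a median of 486, and 251 and 241 in FVB/NJ. It lay 1.29 above the fit in PWD/PHJ and had r = 0.43. Cmpk2 in JF1/Ms had 529 and 698, against a median of 187, and lay 1.19 above the fit. Ifi35, a leucine zipper protein of the response, had r = 0.70 and a 2.08-fold range.

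**Figure D3:**
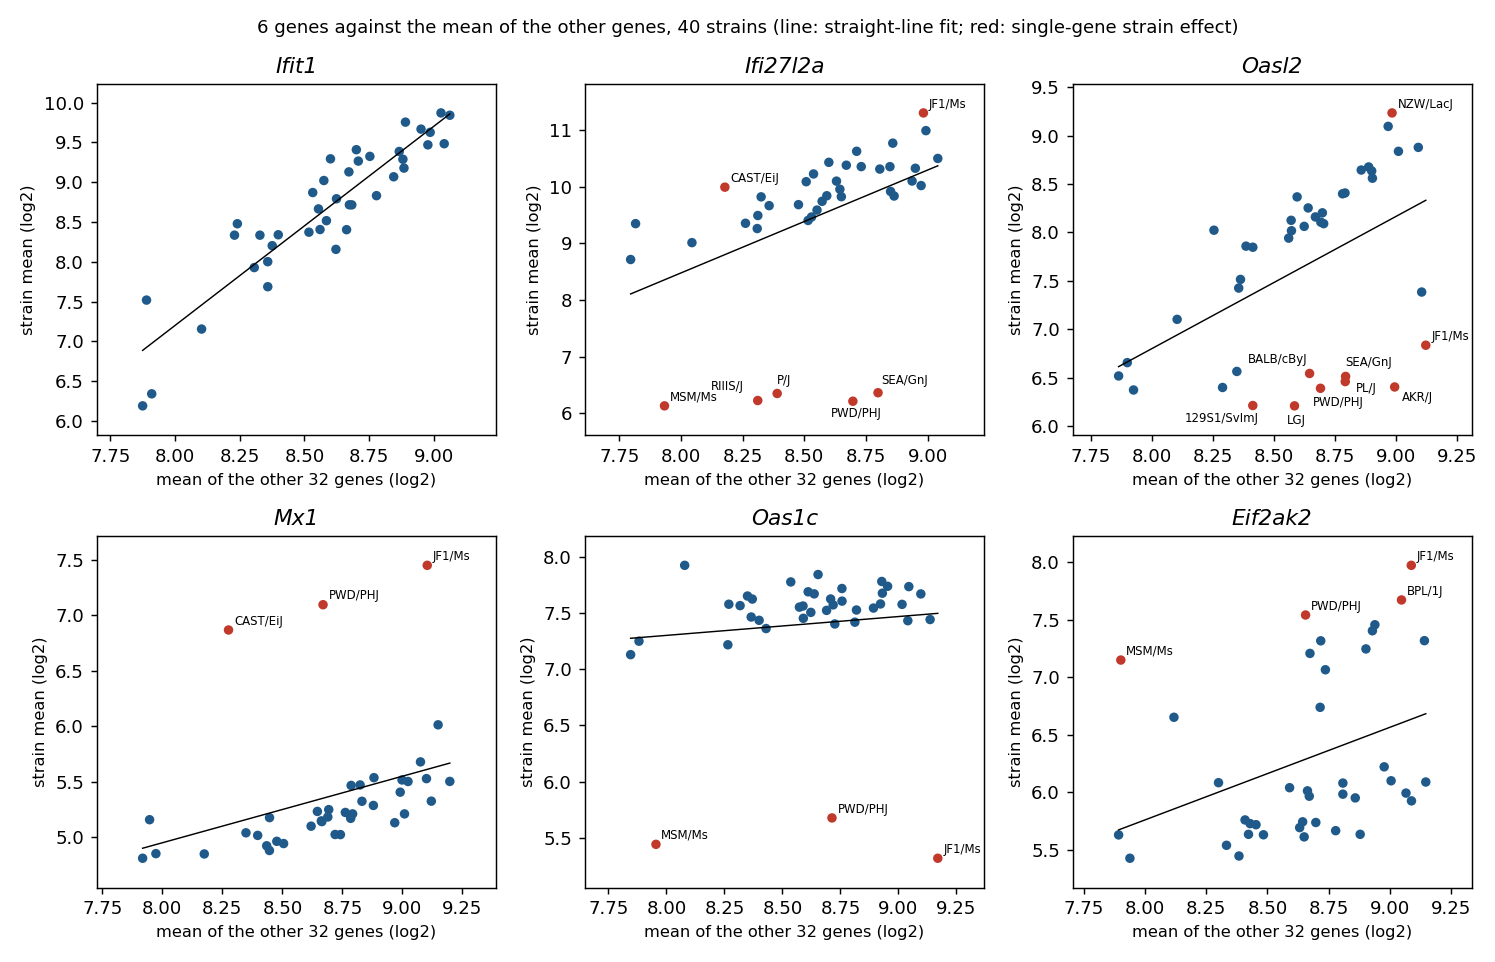
Strain means of 6 genes on the log2 scale (vertical axes) against the mean of the other 32 genes (horizontal axes), 1 point per strain, with the straight-line fit and single-gene strain effects in red. Ifit1 follows the line with no such effect, Ifi27l2a has 5 strains far below it and 2 above, Oasl2 has 8 below and 1 above, Mx1 has 3 above, Oas1c 3 below and Eif2ak2 4 above.

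Among the 9 members with r under 0.5 over the strains, 6 had replicate differences that followed the module at 0.5 or more. These were Xaf1 (0.71), Eif2ak2 (0.64), Oasl2 (0.62), Mx1 (0.61), Trim25 (0.60) and Oas1c (0.56). Ifi27l2a, Oasl1, Bst2 and Ifi27 were the 4 members with replicate r under 0.2. Leaving the 10 members with single-gene effects out of the mean gave strain means that correlated at 0.98 with those of all 33. The remaining members are part of the 33, so a high correlation follows largely from that overlap. JF1/Ms, MRL/MpJ and C57BL/10J were again the highest and SWR/J and FVB/NJ the lowest, while MSM/Ms moved to -0.50 from the others, against -0.73 with all members. Other strains moved too. The difference from the others was 0.21 in PWD/PHJ, against 0.03 with all members, 0.25 in SEA/GnJ, against 0.14, and -0.18 in RIIIS/J, against -0.35.

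**Figure D4:**
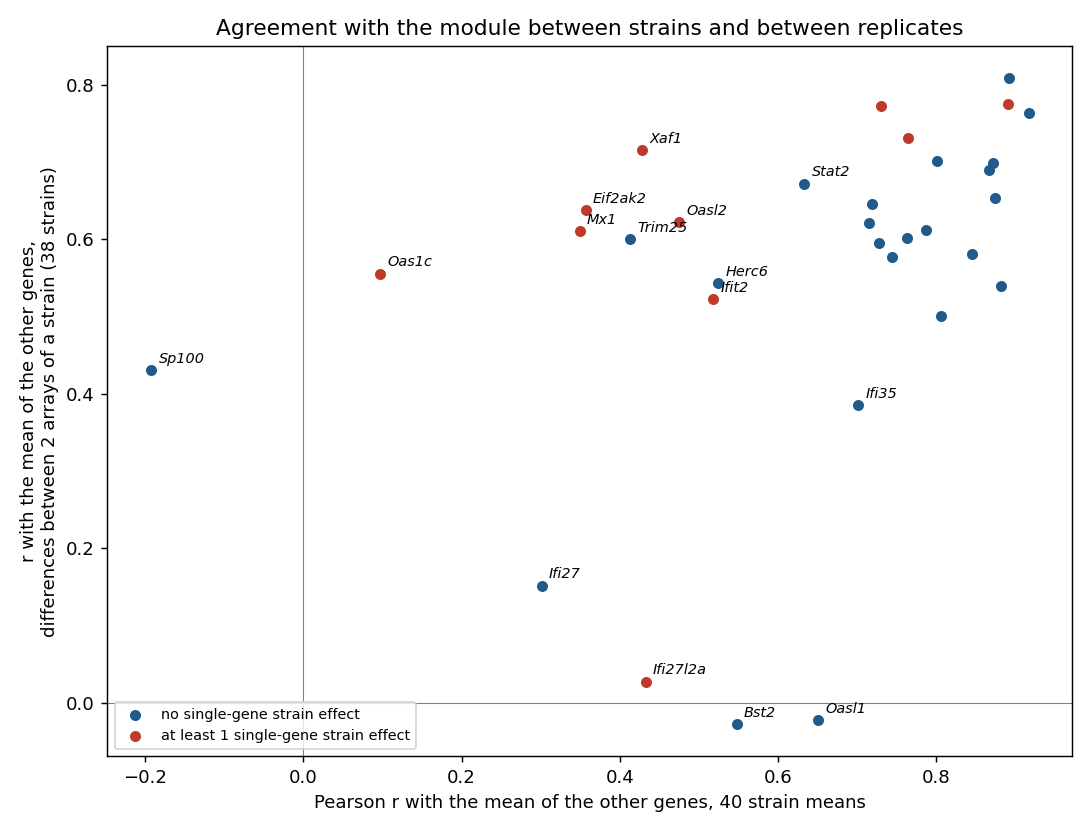
Correlation of each of 33 genes with the mean of the other genes, over the 40 strain means (horizontal) and over the differences between the 2 arrays of 38 strains (vertical), with the 10 genes that had single-gene strain effects in red. Xaf1, Eif2ak2, Mx1, Oasl2 and Oas1c lie at upper left, at 0.10 to 0.47 over strains and 0.56 to 0.71 over replicates, whereas Bst2, Oasl1 and Ifi27l2a lie near 0 on the vertical axis.

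Pairs of strains with a shared origin were compared directly, 6 in all, chosen after the strain order was seen. JF1/Ms and MSM/Ms, both of Japanese origin, stood at opposite ends. In JF1/Ms against MSM/Ms, 26 members were higher and 0 lower, where 1.49% of all probe sets were higher and 0.646% lower. The differences reached 5.17 on the log2 scale in Ifi27l2a, 3.01 in Usp18, 2.75 in Ifit3 and 2.60 in Mx1. Oas1c, low in both, differed by -0.12, short of the threshold.

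In FVB/NJ against SJL/J, both of Swiss-derived stock, 0 members were higher and 19 lower, against 0.923% and 1.51% of all probe sets. The largest were Ifit1 (-2.68), Ifit3 (-2.003) and Oasl2 (-1.71). SWR/J, also of Swiss-derived stock, was not paired here. Its module mean was 7.82, from 1 array, near the 7.86 of FVB/NJ, against 8.59 in SJL/J. The low level was thus not particular to FVB/NJ within that stock. The C57BR-titled arrays against C57BL/6J gave 0 higher and 11 lower (0.494% and 0.959%), led by Ifit3 (-2.29) and Eif2ak2 (-1.82), with the doubt over the label of those arrays standing beside it.

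The other pairs were closer. In C57BL/10J against C57BL/6J, 2 members were higher and 0 lower (0.465% and 2.02% of all probe sets), Ifi27l2a by 0.66 ± 0.16 and Usp18 by 0.59 ± 0.16 (SE, log2). In NZB/BINJ against NZW/LacJ, Irf7 was higher by 0.92 ± 0.17, and Oasl1 (-0.88 ± 0.14) and Bst2 (-0.45 ± 0.13) were lower (0.907% and 1.04%). In NOD/ShiLtJ against NOR/LtJ, a strain bred largely from NOD, Xaf1 (-1.19 ± 0.16) and Ifi27 (-0.57 ± 0.12) were lower and 0 members higher (0.329% and 0.177%).

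The pathway lists are read against the 47.6% of all probe sets that passed the same F-test. Of 16 measured interferon genes, the ligands, 4 passed the F-test, and the list mean correlated with the module at -0.24 over strains. Ifnz ran between 132 in P/J and 456 in BALB/cByJ, Ifna16 between 45.7 and 87.4, Ifnk between 23.8 and 41.0 and Ifna2 between 78.7 and 126. Ifnb1, the first interferon made on infection, had strain means from 30.2 to 42.4, all below the median of all values.

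Of 9 receptor chains and kinases, 7 passed the F-test, with a list r of -0.05. The widest were Ifngr1 (776 to 1876), Ifngr2 (1003 to 2064), both chains of the type II interferon receptor, Il10rb (490 to 1066) and Ifnar2 (788 to 1595). FVB/NJ was lower in Ifnar1 (-0.25), Ifnar2 (-0.35), Tyk2 (-0.45) and Il10rb (-0.42). MSM/Ms, also at the low end of the module, was higher in Ifnar2 (0.46) and Tyk2 (0.40).

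Of 9 further transcription factors, 7 passed, with a list r of 0.51. The widest were Nlrc5, the activator of MHC class I genes, from 1193 in MSM/Ms to 3515 in PL/J, Irf4, Irf8 and Irf3. Irf1 and Nlrc5 were lower in FVB/NJ (-0.53 and -0.43) and in MSM/Ms (-0.35 and -0.97), and Nlrc5 in SWR/J (-0.51). Of 11 negative regulators, 10 passed (list r 0.24), Socs3, Dusp1, Socs1 and Ptpn2 with the widest ranges. Socs1 was higher in MRL/MpJ (0.40) and lower in FVB/NJ (-0.43) and MSM/Ms (-0.46).

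Of 16 sensors and adaptors, 13 passed (list r 0.47), with Tlr7, an endosomal RNA sensor, running between 20.8 in MSM/Ms and 184 in C57BL/6J, and Rnf125, Tbk1 and Myd88 next. Of 32 other interferon-stimulated genes, all 32 passed, and their mean followed the module at r = 0.86. Sp140, Mx2, Lgals3bp and Apobec3 had the widest ranges, Lgals3bp from 364 in MSM/Ms to 2500 in NZB/BINJ. Of the 32, 17 were lower and 0 higher in FVB/NJ, 3 lower and 0 higher in SWR/J, 13 lower and 1 higher in MSM/Ms, 14 higher and 1 lower in MRL/MpJ, and 1 higher and 1 lower in C57BL/10J. The shares of all probe sets lower were 3.66% in FVB/NJ, 1.01% in SWR/J and 6.74% in MSM/Ms. In MRL/MpJ 5.32% of all probe sets were higher, and in C57BL/10J 1.84% were higher and 2.82% lower, so that its counts on this list lie near the background. JF1/Ms, with the third highest module, lay near the middle of the strains on this list. Its list mean was 9.19 on the log2 scale, against a median strain mean of 9.17 and against 9.39 in MRL/MpJ.

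The non-members whose strain means were most like the module, of 9770 candidate genes, were Phf11c (r = 0.83), Rnf213 (0.80), H2-T24 (0.79), Trafd1 (0.75), Pml (0.73), Daxx (0.73), Adar (0.72), Ddx58 (0.71), Lgals3bp (0.70) and Phf11a (0.70), over 40 strains. Among these 10, 5 were on the pathway lists. The matching share of the 9770 candidates was not computed, so this count is only a description. H2-T24, a class Ib MHC gene, ran between 429 in FVB/NJ and 1216 in MRL/MpJ, and Rnf213, a ubiquitin ligase gene, between 678 in SWR/J and 2141 in SEA/GnJ. The r of their replicate differences with the module was 0.69 for both.

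Markers of other cells were set beside the module. On the log2 scale, the B cell list mean lay between 5.76 and 6.00 on the arrays of the 3 highest strains and between 5.80 and 5.90 on those of the 3 lowest. The plasmacytoid dendritic list, cells known for interferon production, lay between 6.60 and 6.79 and between 6.60 and 6.91. The dendritic and myeloid list lay between 5.87 and 6.72 and between 5.97 and 6.69. These ranges overlap, as do those of the neutrophil, erythroid, NK, CD8 T, regulatory T and activated T lists.

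Over the 40 strains, list means correlated with the module between -0.34 (naive CD4 T) and 0.16 (NK). Siglech, the defining plasmacytoid marker, had strain means from 63.6 to 90.9, below the median of all values, and did not pass the F-test (2 of 6 genes of its list did). The F-test, which 47.6% of all probe sets passed, called 0 of 7 B cell, 0 of 8 neutrophil and 0 of 3 erythroid markers, 4 of 8 dendritic and myeloid, 4 of 6 NK, 1 of 2 CD8 T, 4 of 6 activated T, 4 of 4 naive CD4 T and 6 of 6 regulatory T markers. Foxp3, the factor of regulatory T cells, ran between 248 in JF1/Ms and 926 in 129S1/SvImJ, and the part of cell mixture in the module was not tested. Leaving out PL/J replicate 2 and A/J replicate 2 kept all 32 calls of the F-test.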

How the data were processed

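RNA of sorted naive CD4 T cells was read on 82 Affymetrix ST1.0 arrays. The deposited values are linear intensities, 1 per probe set and array. The authors made them with RMA in Affymetrix Power Tools, per the submitters' processing notes, with versions not given in the sources used here. Precision is limited by the number of arrays. Of 24922 probe sets, 21425 carry 1 gene symbol in the platform annotation, 1399 several and 2098 none, and genes were named from the first kind only, by the probe set with the highest mean.

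The log2 intensities were fitted as deposited, with no filter and no further normalization, in limma 3.58.1 (R 4.3.3) with 1 mean per strain, 42 residual degrees of freedom and a prior of 8.09. The moderated F-test compared the 40 strains, and a contrast set each strain against the mean of the other 39. P-values were adjusted by the Benjamini-Hochberg method with a threshold of 0.05. The fit was tested on simulated data for the NZW/LacJ contrast over 24922 probe sets. The contrast called 76% of 100 probe sets changed by 0.5 on the log2 scale, 100% of 100 changed by 1, and 9 of 24722 unchanged ones. The F-test was less sensitive to a change in 1 strain only. It called 4 of the 100 changed by 0.5 and 49 of the 100 changed by 1.

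Named genes are all members, the 10 non-members most like the module, and for each pathway list the 4 called genes with the widest ranges. Ifnb1, Ifnar1, Tyk2, Irf1 and the cell markers were named beside these after their values were seen. Members and lists were chosen with earlier results of these data known. Alternatives changed the normalization, offset, filter, prior, probe set rule, module summary, block and arrays. Each measured member has 1 probe set, so the change of probe set rule could not alter its values. Replicate numbers came from the titles. Over 36 strains, differences of replicate 1 minus 2 correlated with a median of 0.0004 over 630 pairs of strains and 31.6% above 0.1. Single pairs ran from -0.63 to 0.57. The replicate numbers thus marked no common direction over the strains, and they were not used to pair samples in the main fit. Whether some strains shared a batch was not tested. No 2 arrays of a strain were identical (highest correlation 0.997). Promoter windows are from RefSeq, GRCm38.p6. A few items are not reported here.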

Additional observations from a re-analysis of the deposited data

Results flagged for a closer look

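C57BL/6J was the 1 strain with 4 or more arrays, so the search for an array far from the others covered its 5 arrays and 34 values, the 33 genes and the module. Chance alone marks about 1 in 20 such groups. In both marked cases, replicate 3 was high. For Oas3 it had 324, against 227 to 236 on the other 4 arrays, a gap of 0.898 of the whole range, where 0.71 is the critical value. For Eif2ak2 it had 212, against 166 to 171, a gap of 0.877 of the range.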

How the results depend on the processing

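No single-gene effect turned its direction, nor did the module differences of the 3 highest and 3 lowest strains. Module differences near 0 did change sign without the members with single-gene effects. They went from 0.064 to -0.0025 in DBA2-titled, from 0.038 to -0.052 in NON/ShiLtJ and from -0.0095 to 0.076 in BALB/cByJ. Taking the median over members in place of the mean gave module differences of -0.91 in FVB/NJ, -1.02 in MSM/Ms and -0.97 in SWR/J, against -0.75, -0.73 and -0.79 with the mean. Leaving the members with single-gene effects out of the mean gave -0.50 in MSM/Ms. With 1 array left out at a time, members higher in JF1/Ms ranged between 11 (without JF1/Ms replicate 2) and 20, against 19 with all arrays, and the MRL/MpJ module difference between 0.35 and 0.59 (without its replicate 1 and its replicate 2), against 0.47. The causes were not tested. Over all alternatives, the F-test called 31 to 33 members. The 31 came with the dimmest 40% of probe sets left out, which took dim members such as Mx1 out of the test. No member that was tested lost its call. Strain contrasts called 169 to 236 higher and 163 to 195 lower, the lowest counts with array median centring and the highest with quantile normalization. Single-gene effects numbered 26 (offset of 32) to 36. With the replicate number as a block, 12 members were higher in C57BL/10J, against 15, and Ifi27l2a in CAST/EiJ lost its call. SWR/J has 1 array, so its own contrast has no value without it. Dim members (Mx1, Rsad2 and Eif2ak2, below the median of all values in 37, 35 and 29 strains) are read from low signal, which limits what their values can show.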
